A study of Mus musculus with 6 samples.

Results

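The genes described here were 8 transcription factors that set or maintain the identity of the intestinal epithelium: Hnf4a, Hnf4g, Cdx1, Cdx2, Gata4, Gata6, Klf4 and Klf5. They were taken by name, each through the brightest of its transcript clusters (the probe sets of these arrays) that carried exactly 1 gene symbol. The table held 41345 transcript clusters, of which 23521 carried exactly 1 symbol, and each of the 8 genes had 1 such cluster. Total RNA came from whole jejunum of adult mice on a C57BL/6 background, and both groups had been on a diet rich in fat (HFD) for 12 weeks. Mutants (labelled hnf4alpha mutant, n = 3) carried Hnf4a loxP/loxP with Cre under a Villin promoter, which acts in the intestinal epithelium and leaves the gene intact in the muscle, stroma, vessels and immune cells of the same piece of gut. Controls (n = 3) came from the same breeding, and the sources used here did not give whether they carried Cre. Values are log2 signals on 1 array per mouse, and a level is read only against the same gene in the other group, because probes of different genes do not respond alike. In whole tissue, fewer cells of a type and less RNA per cell cannot be told apart.

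HNF4A is a nuclear receptor that binds DNA as a homodimer and sits on the promoters and enhancers of many enterocyte and hepatocyte genes. HNF4G is its paralog, found in the gut with it and able to bind much the same sites. CDX1 and CDX2 are homeobox factors that give the gut epithelium its intestinal rather than gastric character, GATA4 and GATA6 are zinc finger factors, GATA4 being known for keeping the jejunum unlike the ileum, and KLF4 and KLF5 are Krüppel-like factors, of which KLF4 is linked to differentiated and goblet cells and KLF5 to dividing crypt cells. The comparison asked whether loss of HNF4A from the epithelium came with a change in the transcripts of these other factors under HFD.

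Only 3 of the 8 genes had a matching entry in the RefSeq promoter table (GRCm38.p6). Hnf4a is shown as the targeted gene, with windows at 2 start sites. Cdx2 is shown because its product is a known partner of HNF4A at intestinal genes. Each window is the 250 bases before a start, read 5′ to 3′ on the strand of the gene. Capitals mark exact matches, on either strand, to any of 5 motifs, and no match overlapped another in these windows. The letters searched were CAAAGTCCA for HNF4 and, for HNF1, GTTAAT, which is only a part of the full HNF1 site. Those of the GATA factors were AGATAA. Those of the caudal factors were TTTATG, and those of the KLF family were GGGTGTGG. The first Hnf4a window lies at chr2:163506607-163506856 and the second at chr2:163546905-163547154, both on the plus strand, and their starts are 40298 bases apart. The Cdx2 window lies at chr5:147307250-147307499 on the minus strand.
Hnf4a, upstream start: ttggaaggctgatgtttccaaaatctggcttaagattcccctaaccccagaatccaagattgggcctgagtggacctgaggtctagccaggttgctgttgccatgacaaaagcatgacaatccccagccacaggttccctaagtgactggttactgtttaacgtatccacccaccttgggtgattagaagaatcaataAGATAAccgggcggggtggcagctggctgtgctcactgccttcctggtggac
Hnf4a, downstream start: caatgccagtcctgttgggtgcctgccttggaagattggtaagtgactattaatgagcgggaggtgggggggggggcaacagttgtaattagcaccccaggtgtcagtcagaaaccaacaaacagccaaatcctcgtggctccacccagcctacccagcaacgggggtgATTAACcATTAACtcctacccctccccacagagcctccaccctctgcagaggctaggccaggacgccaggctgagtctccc
Cdx2: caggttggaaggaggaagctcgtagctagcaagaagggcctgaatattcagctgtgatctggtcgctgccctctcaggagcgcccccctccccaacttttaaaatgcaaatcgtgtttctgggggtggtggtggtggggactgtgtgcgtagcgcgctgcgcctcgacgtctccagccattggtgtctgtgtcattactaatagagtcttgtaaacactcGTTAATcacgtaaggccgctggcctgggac
The upstream Hnf4a window held 1 GATA match, a motif found in 9.99% of the 32851 windows of that length. The downstream Hnf4a window held 2 HNF1 matches, both on the reverse strand and therefore read as the reverse complement in the line above, and the Cdx2 window held 1 on its own strand, where 6.43% of all windows held that motif. None of these windows held the HNF4 motif (0.384% of all windows), the CDX motif (10.8%) or the KLF motif (3.2%), and the Klf4 window, which is not shown, held no match to any of the 5. These are exact matches of letters and no measure of binding, and sites that differ from the letters by even 1 base were not counted. The array signal does not tell the starts of Hnf4a apart.

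On the arrays Hnf4a (chromosome 2, 163506811 to 163572907, GRCm38.p6) stood at 9.49, 9.25 and 9.11 in the mutants, against 10.74, 10.60 and 10.57 in the controls. Every mutant lay below every control, with more than a log2 unit between the highest mutant and the lowest control. Its mean was 9.28 in mutants, with an SD of 0.19, and 10.64 in controls, with an SD of 0.094 (n = 3 each). The difference of -1.35 (SE 0.127, 95% interval -1.65 to -1.05) is a 2.56-fold lower signal, or 39.1% of the control level (interval 31.8% to 48.2%). In limma the adjusted p was 0.111 over all clusters, just above the threshold of 0.10, and 0.00743 over the clusters with exactly 1 symbol, where the gene was called lower. That call was kept when any single array was left out, with differences between -1.46 and -1.27 and adjusted p between 0.00467 and 0.0718. By p, Hnf4a stood in place 6 of 41345 clusters and in place 4 of 23521. The targeted gene therefore followed the labels in all 6 mice, and its signal in the mutants stayed above the background of the arrays, set at 5.47 from the olfactory receptor genes. The sources used here did not give which exons the Cre deletes or where the probes of this cluster lie, and the signal left in mutants does not say how much intact transcript remained.

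**Figure D1:**
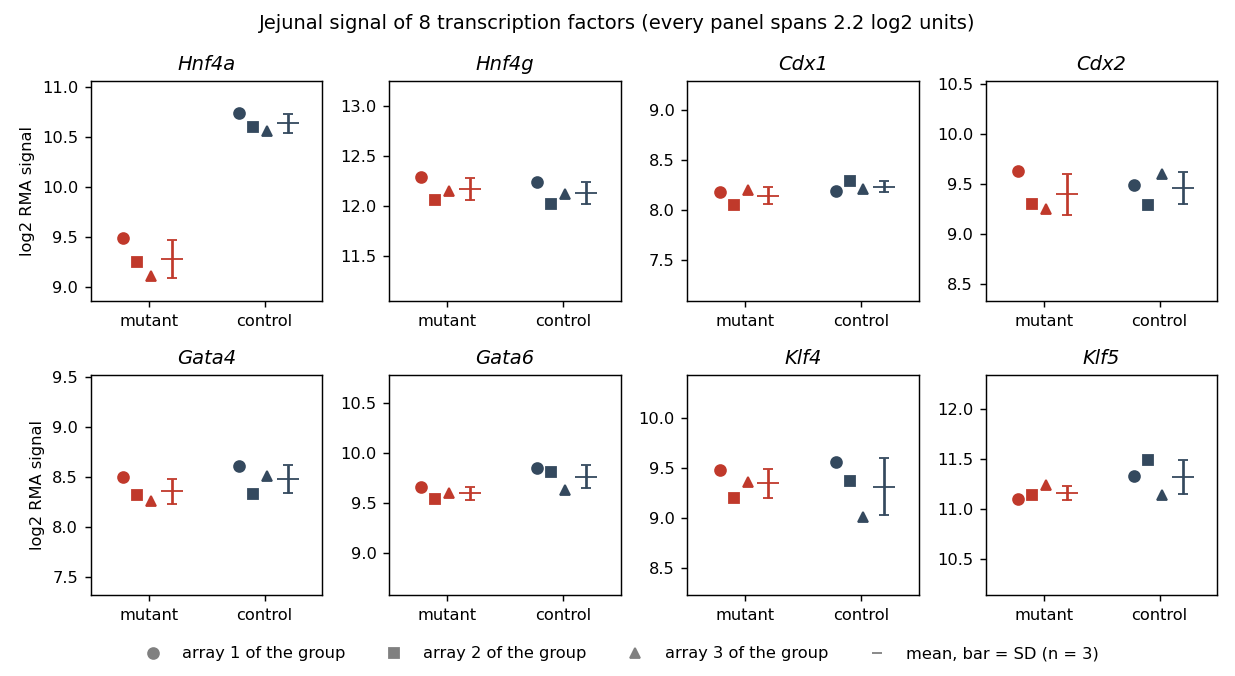
The log2 RMA signal (y axis) of each transcription factor on every array, mutants on the left and controls on the right of each panel, with the mean and SD beside the points (n = 3). Every panel spans 2.2 log2 units, and the groups are separate in the Hnf4a panel alone, at 9.11 to 9.49 in mutants and 10.57 to 10.74 in controls.

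Hnf4g, the paralog, was at 12.29, 12.06 and 12.15 in the mutants, against 12.24, 12.02 and 12.12 in the controls. The groups overlapped almost completely, with means of 12.17 ± 0.11 in mutants and of 12.13 ± 0.11 in controls (SD, 3 mice each). The difference was 0.04 (SE 0.109, interval -0.22 to 0.30, limma adjusted p = 0.960 over all clusters and 0.942 over those with 1 symbol), so a mutant level anywhere between 86.0% and 123% of the control level lies within its error. A rise of the paralog beyond that upper bound was thus outside the interval of these 6 arrays. Taken on each array as Hnf4a minus Hnf4g and set against the control mean, the mutants were at -1.30, -1.32 and -1.55 and the controls at -0.01, 0.07 and -0.06. The shift of the pair was -1.39, and the exact two-sided permutation test gave p = 0.1, which is the smallest p that 3 mice against 3 allow (0.4 after adjustment over the 4 pairs of paralogs compared).

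Over all clusters 0 of the 8 genes were called in limma, where 0.0121% of the clusters were, and at an unadjusted p under 0.05 over the clusters with 1 symbol 1 of the 8 passed, again Hnf4a, beside 8.99% of those clusters. Over the clusters with exactly 1 symbol 1 of the 8, Hnf4a, was called lower, where 0.264% of clusters were lower and 0.472% called in either direction. The mutants and controls did not overlap in 1 of the 8 genes, Hnf4a as well, where 14.3% of the clusters with 1 symbol and 12.9% of all clusters were apart in either direction, and 7.01% and 6.37% were lower in mutants. The other 7 genes all had differences between -0.16 and 0.04, well inside the span of -0.35 to 0.37 that held the middle 95% of the clusters with 1 symbol. Their intervals reached down to 73.7% of the control level at the lowest, for Klf5, and up to 133% at the highest, for Klf4. A change of the size seen for Hnf4a was outside the interval of each of these 7.

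**Figure D2:**
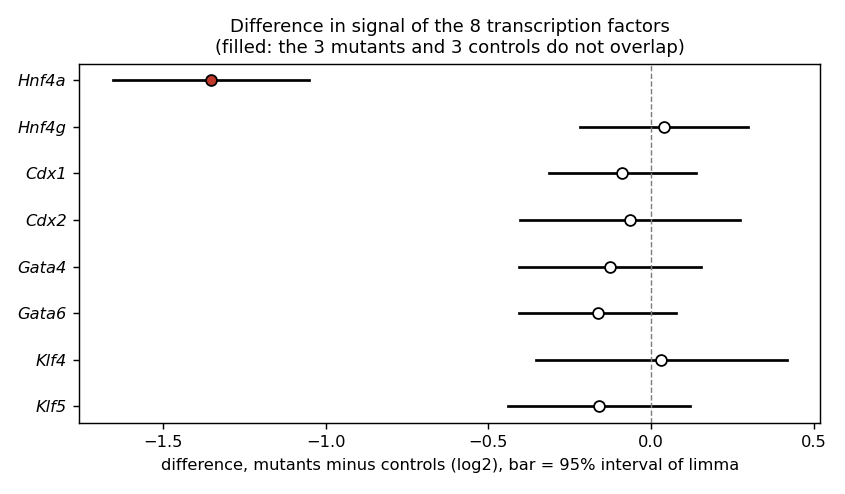
The difference in log2 signal, mutants minus controls (x axis), of each transcription factor with its 95% limma interval. The Hnf4a interval runs from -1.65 to -1.05, and those of the other 7 genes cross 0.

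Both caudal factors kept overlapping levels. Cdx1 was at 8.19, 8.05 and 8.20 in the mutants, against 8.19, 8.30 and 8.22 in the controls, a difference of -0.09 (SE 0.095, interval -0.31 to 0.14, limma adjusted p = 0.884). Its controls lay close together and mutant 2 was the lowest array. Cdx2 (chromosome 5, 147300900 to 147307249), whose product is the main intestinal determinant of the pair, was at 9.63, 9.30 and 9.25 in the mutants, against 9.49, 9.29 and 9.60 in the controls, a difference of -0.07 (SE 0.142, interval -0.40 to 0.27, limma adjusted p = 0.949). The highest and the lowest Cdx2 values both fell in the mutants. As a pair, Cdx1 minus Cdx2 shifted by -0.02 between the groups (exact permutation p = 0.8). The third caudal gene, Cdx4, which acts in the embryo, was below background in both groups at means of 4.72 in mutants and 4.60 in controls.

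The GATA factors lay slightly lower in mutants, within their error. Gata4 (chromosome 14, 63198914 to 63271712) was at 8.49, 8.32 and 8.25 in the mutants, against 8.61, 8.33 and 8.51 in the controls, a difference of -0.13 (SE 0.118, interval -0.41 to 0.15, limma adjusted p = 0.868). Gata6 was at 9.66, 9.54 and 9.60 in the mutants, against 9.85, 9.81 and 9.63 in the controls, a difference of -0.16 (SE 0.102, interval -0.41 to 0.077, limma adjusted p = 0.7998). In Gata6 the overlap came from control 3 alone, which lay below mutant 1. The change of Gata4 relative to Gata6 was 0.04 (exact permutation p = 0.8). Gata5, the remaining GATA factor of the gut epithelium, was at means of 10.21 in mutants and 10.10 in controls, a difference of 0.11 (SE 0.102, limma adjusted p = 0.870). Gata3, a factor of T lymphocytes, differed by 0.14 (SE 0.138), and the blood cell factors Gata1 and Gata2 were below background on every array. Of the 6 GATA genes, 0 were called in either limma fit.

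The Krüppel-like members also overlapped between the groups. Klf4 (chromosome 4, 55527137 to 55532475) was at 9.48, 9.20 and 9.36 in the mutants, against 9.56, 9.37 and 9.01 in the controls, a difference of 0.03 (SE 0.162, interval -0.35 to 0.42, limma adjusted p = 0.978). The spread among the controls was the widest of the 8 genes, and control 3 was the lowest array. Klf5 (chromosome 14, 99298691 to 99313412) was at 11.10, 11.14 and 11.24 in the mutants, against 11.33, 11.49 and 11.14 in the controls, a difference of -0.16 (SE 0.118, interval -0.44 to 0.12, limma adjusted p = 0.831). Control 3 lay within the range of the mutants, and the other controls lay above it. Klf4 minus Klf5 shifted by 0.19 (exact permutation p = 0.3, 0.6 after adjustment over the 4 pairs).

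Of the 17 Krüppel-like genes measured, 13 had a difference below 0 and the median was -0.10 (-0.05 without control 2 and -0.04 without dim genes), beside 0.0079 for all clusters with 1 symbol. Klf15, a factor known from the control of amino acid and lipid use in fasting, was the one called, and only in the fit over clusters with 1 symbol (1 of 17, beside the 0.264% called lower there). It was at 6.24, 6.25 and 6.33 in the mutants, against 7.07, 6.88 and 6.93 in the controls. The groups did not overlap, and the difference was -0.69 (SE 0.097, limma adjusted p = 0.230 over all clusters and 0.0407 over those with 1 symbol). In the second fit the call was lost when any array but control 2 was left out, with an adjusted p of up to 0.209. Klf6, an early response gene, differed by -0.29 (SE 0.107) and Klf13 by -0.20 (SE 0.110), both without overlap and with limma adjusted p of 0.448 and 0.640 over clusters with 1 symbol. The dim members Klf1, Klf8 and Klf12 were below background on every array.

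**Figure D3:**
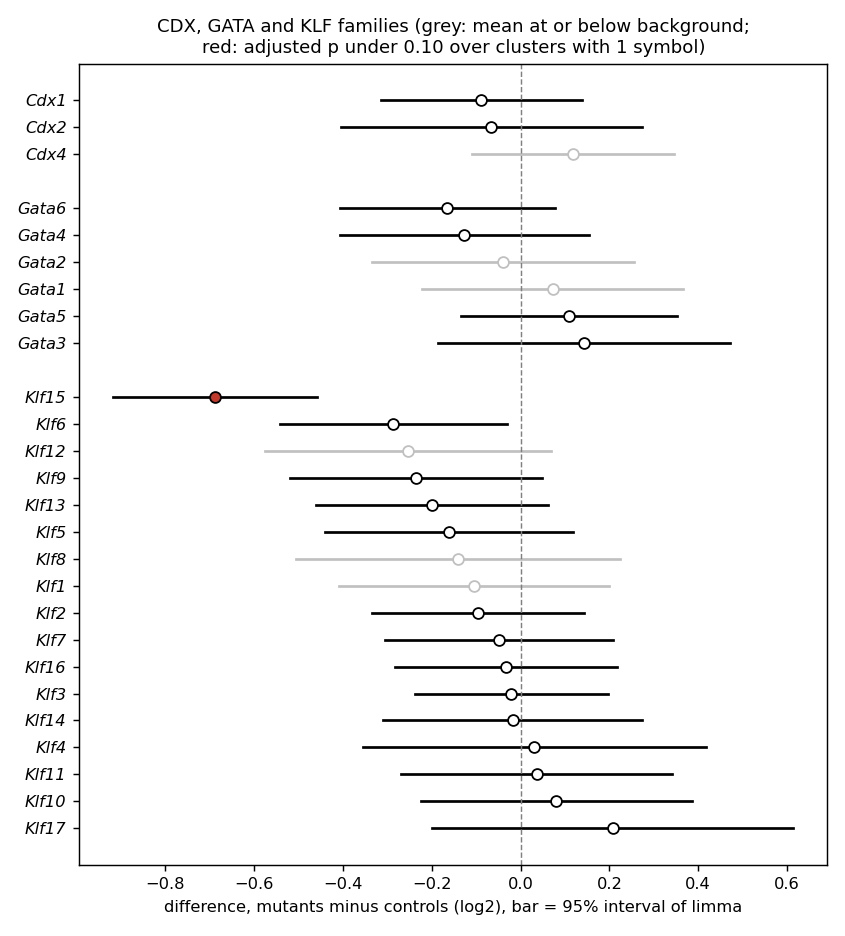
The difference in log2 signal, mutants minus controls (x axis), of every measured CDX, GATA and KLF gene with its 95% limma interval. Grey marks genes with a mean at or below background, and the red point is Klf15 at -0.69, the one gene of the 3 families called over the clusters with 1 symbol.

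The antisense transcript Hnf4aos overlaps 34911 bases of the Hnf4a locus, including its upstream start. Its signal was 6.43, 6.52 and 6.28 in the mutants and 6.48, 5.99 and 6.57 in the controls, a difference of 0.06 (SE 0.170, limma adjusted p = 0.959). The groups overlapped, with control 2 the lowest array, so the sense and antisense clusters of the locus did not move alike. Gata6os, transcribed beside Gata6, differed by -0.07 (SE 0.146, limma adjusted p = 0.943). The sources used here did not state how the array design assigns strand.

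The genes whose pattern over the 6 arrays was most like that of Hnf4a, among 647 genes with a range of at least 1 log2 unit, were Pm20d1, Pcdh19, Mexis, Aldh1l1 and Hykk, with Pearson r between 0.986 and 0.995. With both groups in the correlation, it is set mainly by the gap between mutants and controls. Pm20d1, which makes N-acyl amino acids, averaged 6.12 ± 0.21 in mutants, against 8.61 ± 0.28 in controls (SD, 3 mice each), a difference of -2.49 (SE 0.175, limma adjusted p = 0.0514 over all clusters). Aldh1l1, an enzyme of folate metabolism, differed by -0.94 (SE 0.118) and the protocadherin gene Pcdh19 by -0.93 (SE 0.099). For the other 7 factors the best match reached r of 0.923 for Hnf4g, 0.981 for Cdx1, 0.942 for Cdx2, 0.954 for Gata4, 0.942 for Gata6, 0.969 for Klf4 and 0.966 for Klf5. Each of these is the highest of 648 correlations over only 6 arrays, so a high r by itself shows no link. The best match of Hnf4g, Mir669b, was below background at means of 3.61 in mutants and 3.39 in controls. That of Klf4, Btbd35f5, was below background too, at 4.33 and 4.10.

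In the wider set of regulators around these factors no gene was called, over all clusters or over those with 1 symbol. Of 29 nuclear receptors measured, the family to which HNF4A belongs, 0 were called in either limma fit, 19 lay below 0 and the median was -0.05 (-0.13 without control 3). Rxra, the shared partner of many nuclear receptors, was at 8.11, 7.93 and 8.07 in the mutants, against 8.37, 8.40 and 8.33 in the controls, a difference of -0.33 (SE 0.095, limma adjusted p = 0.298 over clusters with 1 symbol). Ppara, the receptor that turns on fatty acid oxidation, also differed by -0.33 (SE 0.107), and Nr1i3, which encodes the xenobiotic receptor CAR, by -0.65 (SE 0.193). The groups did not overlap in these 3 genes. In all, 5 of the 29 receptors were apart, each lower in mutants, where 7.01% of the clusters with 1 symbol were. With 1 array left out of the fit over clusters with 1 symbol, Nr1i3 was called in 1 case (limma adjusted p = 0.0572). Control 2 was its lowest control, at 8.59 beside 9.23 and 9.18. Of 19 coregulators 0 were called and 16 lay below 0, with a median of -0.05. Among them Ppargc1b, a coactivator of mitochondrial genes, differed by -0.29 (SE 0.092) and Ppargc1a, its relative, by -0.26 (SE 0.151).

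Of 32 other transcription factors of the gut epithelium, 0 were called and 21 lay above 0, with a median of 0.06. Neurog3, which starts the enteroendocrine lineage, was at 6.70, 6.83 and 6.67 in the mutants, against 6.26, 6.24 and 6.52 in the controls. All 3 mutants were above all 3 controls, and the difference of 0.39 (SE 0.115) had a limma adjusted p of 0.295 over clusters with 1 symbol. Cebpa, a factor shared with liver and fat, differed by 0.31 (SE 0.106) and Onecut2, a factor of the small intestine, by -0.30 (SE 0.118).

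Genes described elsewhere as targets of these factors were counted next. Of 27 HNF4A targets measured, a list drawn up with earlier results of these data known, 3 were called lower over clusters with 1 symbol, where 0.264% were, 16 lay below 0 and the median was -0.10. Acox2, which encodes a peroxisomal enzyme for branched-chain fats and bile acid intermediates, was at 5.88, 5.42 and 5.18 in the mutants, against 7.06, 6.89 and 7.23 in the controls. The difference was -1.57 (SE 0.193, limma adjusted p = 0.184 over all clusters and 0.0173 over those with 1 symbol), with mutants 2 and 3 below background. Gip, the incretin hormone of K cells, differed by -0.97 (SE 0.153, 0.0511 over clusters with 1 symbol) and Ttr, a carrier of thyroid hormone and retinol that liver secretes, by -1.50 (SE 0.292, 0.0839). The enterocyte targets Fabp1, a fatty acid binding protein, and Mttp, needed to load lipid onto apolipoprotein B, differed by -0.10 (SE 0.102) and 0.06 (SE 0.086), without a call. Apoa1, Apoa4, Apob and Fabp2, also on the list, differed by 0.03, 0.02, 0.07 and 0.04, without a call. Apoa2, another apolipoprotein gene of the list, was lower in mutants by -1.30 (SE 0.362), without overlap. It was at 7.41, 7.30 and 7.49 in the mutants, against 9.02, 7.80 and 9.28 in the controls. Over clusters with 1 symbol Apoa2 was not called (limma adjusted p = 0.224), and with 1 array left out that p fell as low as 0.00265. In all 3 called targets control 2 was the lowest control (Ttr at 8.16, 7.53 and 8.76), as it was for albumin below. Whether these patterns share an origin was not tested. Nr1i3 and Ppara are counted in this list and among the nuclear receptors. The call of Acox2 was lost without mutant 2 (0.104) or control 1 (0.117), that of Gip without mutant 2, mutant 3, control 1 or control 3 (0.134 to 0.221), and that of Ttr without any array but control 2 (0.124 to 0.315).

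Of 21 CDX targets 0 were called, 12 lay above 0 and the median was 0.01. Sis, which encodes sucrase-isomaltase and is the classical CDX2 target, was at 12.88, 12.93 and 12.94 in the mutants, against 13.02, 12.97 and 12.94 in the controls, a difference of -0.06 (SE 0.087). Cdh17, the intestinal cadherin, differed by -0.14 (SE 0.098), the mucin gene Muc2 by 0.34 (SE 0.115) and Guca2a, which encodes guanylin, by 0.33 (SE 0.098, limma adjusted p = 0.314 over clusters with 1 symbol). Of 13 targets of KLF4 or KLF5, 9 lay below 0 and the median was -0.08. The groups did not overlap in 2 of them that were lower in mutants and 1 that was higher. The higher one, Sprr1a, a component of the cornified envelope of squamous cells, was called at 0.85 (SE 0.171, limma adjusted p = 0.0918 over clusters with 1 symbol). Beside it 0.208% of those clusters were called higher. The survivin gene Birc5, 1 of the 2 lower, differed by -0.38 (SE 0.090) without a call. The Sprr1a call was lost without any array but control 1, with adjusted p between 0.148 and 0.343.

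Genes that mark a stretch of the gut, which these factors are known to set, differed in both directions. Of 17 genes of the proximal small intestine and 11 of the ileum 0 were called, with medians of -0.02 and -0.03. Among the proximal genes Cyp2c65, a cytochrome P450, was at 10.34, 10.33 and 10.31 in the mutants, against 9.87, 8.87 and 9.78 in the controls, a difference of 0.82 (SE 0.257, limma adjusted p = 0.295 over clusters with 1 symbol). Slc40a1, the iron exporter ferroportin, differed by 0.63 (SE 0.162, 0.202), and in both genes every mutant was above every control. Without mutant 1 Slc40a1 was called, at 0.78 (0.0984), and without control 2 the difference of Cyp2c65 was 0.50. Fgf15, the ileal hormone that represses bile acid synthesis, was at 7.45, 6.80 and 8.01 in the mutants, against 6.54, 5.83 and 6.56 in the controls, a difference of 1.11 (SE 0.334, limma adjusted p = 0.272 over clusters with 1 symbol) with no overlap, while Fabp6, the ileal bile acid binding protein, differed by -0.58 (SE 0.455). Both ileal genes varied by more than a log2 unit among the mutants alone. Fgf15 was called in 1 of the alternative settings (limma adjusted p = 0.0486). Cubn, the ileal receptor for vitamin B12 bound to intrinsic factor, differed by -0.54 (SE 0.233). Of 12 colonic genes 0 were called, with a median of 0.11, and the water channel gene Aqp4 differed by -0.44 (SE 0.137). Of 15 gastric genes 1 was called higher, where 0.208% of the clusters with 1 symbol were, with a median of 0.07: Psca, a surface antigen of stomach epithelium, was at 7.92, 7.75 and 7.44 in the mutants, against 5.17, 5.12 and 6.13 in the controls. The difference was 2.23 (SE 0.284, limma adjusted p = 0.190 over all clusters and 0.0176 over those with 1 symbol), and controls 1 and 2 were below background. The Psca call was lost without mutant 2 (0.104) or control 1 (0.117). Of the 15 gastric genes 10 lay above 0 and 5 below, and only 4 were above background on every array. Gkn3, another gastric gene, went the other way at -0.58 (SE 0.155), without overlap and without a call. Its means of 4.82 in mutants and 5.40 in controls were both below background. In limma over all clusters, 0 genes of any list given here were called. At an unadjusted p under 0.05 over clusters with 1 symbol, beside the 8.99% of all such clusters, the genes that passed were 6 of 29 nuclear receptors, 1 of 19 coregulators, 7 of 32 other epithelial factors, 0 of 6 GATA genes, 2 of 17 KLF genes, 10 of 27 HNF4A targets, 3 of 21 CDX targets, 4 of 13 KLF4 or KLF5 targets, 3 of 17 proximal, 3 of 11 ileal, 1 of 12 colonic and 4 of 15 gastric genes.

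Markers of enterocytes and epithelium were read to see that the arrays held gut epithelium, which they cannot place along the gut. All 17 proximal and all 11 ileal genes were above background on every array, so that count does not place it either. All 17 enterocyte markers measured and all 13 epithelial markers were above background on every array, with medians of -0.03 (0.013 without control 1) and 0.0069 (-0.06 without control 3) and 0 called in either list, nor any at an unadjusted p under 0.05. The mean of the enterocyte markers, set against the control mean, was -0.06, -0.07 and 0.01 in the mutants, against 0.06, -0.02 and -0.04 in the controls, and that of the epithelial markers was -0.04, -0.01 and 0.02 in the mutants and -0.02, 0.06 and -0.04 in the controls. Mutants and controls overlapped in both means, on the same arrays that differed by more than a log2 unit in Hnf4a.

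Markers of other cells were read on the same arrays. Of 18 hepatocyte markers, which in liver include targets of HNF4A, 15 lay below 0, 4 (Fgb, Alb, Cyp2e1 and Hp) were called lower over clusters with 1 symbol, where 0.264% were, and the median was -1.003. Of these, 12 were above background on average in mutants and 16 in controls. Albumin (Alb) was at 7.73, 7.05 and 6.44 in the mutants, against 10.30, 8.80 and 10.38 in the controls. The mean of the list was -0.85, -1.14 and -1.37 in the mutants and 0.25, -0.63 and 0.39 in the controls. Set against its control mean in the same way, Hnf4a was at -1.15, -1.39 and -1.53 in the mutants, against 0.11, -0.03 and -0.07 in the controls. Of 15 T and NK lymphocyte markers 12 lay below 0 and 4 were called lower (Ccl5, Cd7, Gzmb and Gzma), beside the same 0.264%. The median was -0.44 (-0.23 without control 3), with list means of -0.32, -0.41 and -0.37 in mutants and -0.04, -0.05 and 0.09 in controls. The 3 markers above 0 were Cd4 at 0.42 (SE 0.254), Prf1 at 0.13 and Cd8b1 at 0.05, without a call. All 15 goblet cell markers lay above 0, with a median of 0.35. In 11 of the 15 every mutant was above every control, where 14.3% of the clusters with 1 symbol were apart in either direction. At an unadjusted limma p under 0.05, 10 of the 15 passed, beside 8.99% of those clusters. Their list means did not overlap, at 0.38, 0.43 and 0.29 in mutants and -0.19, 0.10 and 0.10 in controls. Bcas1 alone was called, at 0.52 (SE 0.088, limma adjusted p = 0.0839 over clusters with 1 symbol, where 0.208% were called higher). Of 14 smooth muscle markers 12 lay below 0, with a median of -0.20 and 0 called. The smooth muscle list means overlapped, at -0.04, -0.27 and -0.23 in mutants and -0.08, 0.25 and -0.18 in controls. Every array, when left out, took the call of Bcas1 (0.149 to 0.333), and the calls of the 4 lymphocyte and 4 hepatocyte genes were each lost without mutant 2 or control 1 (0.108 to 0.333), some of them without other arrays too. Of the other lists, 13 of 14 enteroendocrine (median 0.16, Gip called lower), 12 of 14 fibroblast (0.18), 12 of 14 macrophage (0.17), 9 of 10 mesothelial (0.16), 9 of 11 Paneth (0.20) and 11 of 14 endothelial markers (0.04) lay above 0, as did 7 of 15 stem cell (-0.0014), 5 of 10 B cell (0.012) and 6 of 13 pancreatic markers (-0.0094), and 0 of these were called higher. The list means overlapped between the groups for enteroendocrine, fibroblast, macrophage, Paneth and endothelial markers, and control 1 was the lowest array in each. Those of the Paneth markers were 0.43, 0.55 and -0.13 in mutants and -0.54, 0.30 and 0.24 in controls. The mesothelial means did not overlap, at 0.18, 0.14 and 0.18 in mutants and 0.03, -0.02 and -0.01 in controls. The part of all these cells in the values of the 8 factors was not tested.

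**Figure D4:**
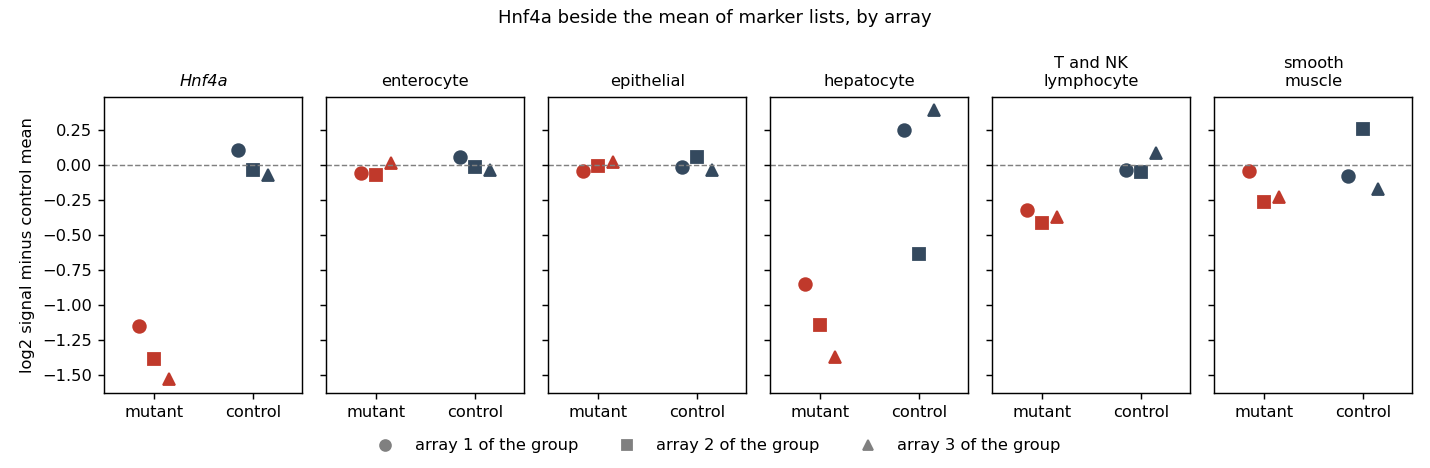
The log2 signal of Hnf4a and the mean of 5 marker lists on every array, each set against its control mean (y axis), mutants on the left and controls on the right of each panel. Hnf4a lies more than a log2 unit below the controls in each mutant, enterocyte and epithelial means stay within 0.07 of 0 on every array, and the hepatocyte mean of control 2 is -0.63.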

How the data were processed

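Jejunal total RNA from 3 mutants and 3 controls was hybridised to 1 Affymetrix array per mouse. The deposited log2 values were made by the authors with RMA in the Transcriptome Analysis Console, which subtracts background, equalises the distributions of the arrays and compresses weak signals, so a change in total RNA is not kept. The cluster identifiers belong to the Mouse Gene 2.0 ST design, although the methods name a different Affymetrix mouse array. Groups came from the titles. The sources used here did not give litter, the sex of each mouse or scan batches.

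Mutants were compared with controls with limma 3.58.1 in R 4.3.3 (two-sided, empirical Bayes, Benjamini-Hochberg adjustment over all 41345 clusters, called at an adjusted p under 0.10), and again over the 23521 clusters with 1 symbol. SE and 95% intervals are from the fit over all clusters. The p-values measure the spread between 3 mice a group, and array number limits the precision. The fit was tested on simulated data. Background was the 95% point of the olfactory receptor genes. Paralog pairs were compared by exact permutation of per-array differences. Lists were described by counts and medians.

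Named were the 8 factors, their families and antisense genes, and the genes most correlated with a factor. From each other list up to 4 genes with the smallest p were named. Sis, Cdh17, Fabp1, Fabp6 and Mttp were added after their values were seen. Apoa1, Apoa4, Apob, Fabp2, Cd4, Prf1 and Cd8b1 were named outside these rules too. The 8 factors and the lists were chosen with earlier results of these data known. Gene positions and promoters came from RefSeq (GRCm38.p6). Alternatives were another set of clusters, a dim filter, repeated quantile normalization, centring, a trended robust prior, array weights, unmoderated statistics, a threshold of 0.05, a minimum difference of 1 log2 unit, leaving out each array, and a replicate block. Combining the 1-symbol fit with the last 2 was chosen after seeing the data.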

Additional observations from a re-analysis of the deposited data

How the results depend on the processing

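Over all clusters 5 were called in limma. That count was 111 over the clusters with 1 symbol, 34 without dim clusters, 17 with a trended robust prior, and 0 with unmoderated statistics or at an adjusted p under 0.05 (2803 and 2926 clusters had an unadjusted p under 0.05), and it was 0 to 16 with 1 array left out, being 0 without control 1 or any mutant, 16 without control 2 and 14 without control 3. Of the 8 factors 0 were called, and 1, Hnf4a, was called over the clusters with 1 symbol (difference -1.35), without dim clusters (-1.35, adjusted p = 0.0291), after centring (-1.36, 0.0967), with the trended robust prior (-1.35, 0.0407) and with array weights (-1.37, 0.0801), but not after repeated quantile normalization (-1.32, 0.122) or with unmoderated statistics (0.403). With 1 array left out over all clusters Hnf4a lay between -1.46 and -1.27 and was not called (0.133 to 0.548). Over the clusters with 1 symbol, 63, 10 and 34 clusters were called without mutants 1, 2 and 3 and 15, 108 and 35 without controls 1, 2 and 3, and Hnf4a, the 1 factor called each time, was at -1.46, -1.34, -1.27, -1.30, -1.37 and -1.39 in the same order. The cause of these shifts was not tested.

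Signs of small differences turned when 1 array was left out: Hnf4g ranged over -0.020 to 0.097 (-0.012 without control 2), Klf4 over -0.12 to 0.15 (-0.037 without mutant 1), Cdx2 over -0.18 to 0.0064 (0.0049 without control 3), Hnf4aos over -0.12 to 0.18, Gata6os over -0.18 to 0.077, Cdx1 minus Cdx2 over -0.12 to 0.093 and Gata4 minus Gata6 over -0.059 to 0.12.

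Titles number the arrays of each group without saying that numbers pair mice, and deviations of same-numbered arrays correlated at -0.11, -0.0065 and -0.051. With the replicate number as a block 0 clusters (2585 at an unadjusted p under 0.05) and 0 of the 8 factors were called (Hnf4a -1.35, 0.296), and over the clusters with 1 symbol 64 clusters and 1 factor were called (Hnf4a -1.35, 0.0148).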
